A study of Arabidopsis thaliana with 4 samples.

Results

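Arabidopsis names many of its transcription factors by family and number. Here 15 such genes were followed in leaves of the jasmonate mutant opr3 and of wild type (wt). The leaves came from control plants or from plants wounded on other leaves. The members were chosen by their gene symbol in the annotation of the array, which had to be MYB, NAC, ANAC, BHLH, BZIP, ERF, WRKY, HB or GATA followed directly by a number. Of 13356 genes named alone by a probe set, 26 had such a symbol. WRKY6, WRKY22, WRKY53, BZIP61 and BHLH101 were left out by definition, and 15 of the other 21 reached a log2 value of 4.73 on at least 1 array. The 15 are 8 bZIP, 4 bHLH, 2 WRKY genes and 1 NAC gene, and no MYB, ERF, HB or GATA gene was named in this way on the array. The numbered families of the plant are far larger than this, and 8730 plant probe sets were not listed in the annotation, so the 15 genes are a sample set by naming.

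Each of the 4 groups had 1 Affymetrix ATH1 array, which reads transcripts through probe sets, groups of short oligonucleotides that share a target transcript. The groups were wounded opr3, control opr3, wounded wt and control wt, all from plants 6 weeks old kept at 21 °C with 10 h light and 14 h dark. OPR3 encodes a reductase on the path to jasmonic acid, and opr3 plants carry a lesion in it. No probe set was paired with OPR3 in the annotation, so its level was not analysed here. In wounded plants some rosette leaves were crushed with tweezers and RNA was taken 2 h later from leaves described as control leaves of those plants, which with the sample titles means uncrushed ones. The protocol of the wounded opr3 sample names wt plants, so its group rests on its title. Neither the accession of the lines nor the number of plants per array was given in the sources used here.

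Values are the authors' RMA values on the log2 scale, and a difference of 1 is 2-fold. With 1 array per group there was no spread between plants, so no difference below has a test or a replicate check. The distribution over the 14612 plant probe sets that reached 4.73 is given beside the members instead. Pearson's r between arrays, across probe sets, ran from 0.965 to 0.993. In bacterial transcripts spiked into the samples, the 5′ probe sets minus the 3′ ones averaged -1.29 in wounded opr3, -1.27 in control opr3, -2.00 in wounded wt and -1.16 in control wt (log2, 8 pairs), so the wounded wt array stood apart in this measure. The mesophyll genes RCA, LHCB4.1 and PRK lay between 12.21 and 13.57 on the 4 arrays. No marker of root, flower, seed, phloem, xylem or trichome and epidermis had a named probe set, so these tissues were not analysed here. In a bulk leaf sample, fewer cells of a type and less RNA per cell cannot be told apart.

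A transcription factor binds short DNA motifs and raises or lowers the transcription of nearby genes. bZIP factors bind as dimers through a leucine zipper, bHLH factors dimerise through a helix-loop-helix, WRKY factors carry the WRKY peptide and bind W-box motifs, and NAC factors share a plant-specific domain at their amino end. After wounding, jasmonate releases bHLH factors of the MYC group from repressors, and members of the ERF, MYB, NAC and WRKY families are transcribed in the cascade that follows. Many bZIP factors are controlled at the protein or splicing level, so their transcript level is only part of their regulation.

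For 9 of the 15 genes the wounded and control leaves differed by less than 0.5 (log2) in each line, which is 60% of the members, against 66.3% of all probe sets. In wounded opr3 against control opr3, none of the 15 genes was at least 2-fold higher (4.85% of all probe sets) and 1 was at least 2-fold lower (1.68% of all probe sets). In wounded wt against control wt none was at least 2-fold higher (3.94% of all probe sets) and none at least 2-fold lower (1.79% of all probe sets). A single gene is 6.67% of the members, so little can be read from these shares. The median log2 difference of the 15 was -0.11 in opr3 and -0.23 in wt, against -0.03 and -0.05 over all probe sets. Without the filter, over 21 genes, these medians were 0.01 in opr3 and -0.09 in wt, so the direction in opr3 depended on it. The median size of the difference, without its sign, was 0.25 in opr3 and 0.27 in wt, against 0.27 and 0.24 over all probe sets.

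Several genes past 2-fold were among the 5 that the definition left out. Of those, 3 were at least 2-fold lower after wounding in opr3 and 2 in wt. With them the counts were 4 of 20 genes in opr3 (1.68% of all probe sets) and 2 of 20 in wt (1.79% of all probe sets). Among the 15, the difference was below 0 for 9 genes in opr3 (53.2% of all probe sets) and for 11 genes in wt (56.2% of all probe sets). It was below 0 in both lines for 8 genes (41.2% of all probe sets), above 0 in both for 3 (31.7% of all probe sets) and of opposite sign for 4 (27.1% of all probe sets), although BZIP24 and bHLH115, both within 0.03 of 0 in opr3, changed sign there under another scaling. BZIP34 in both lines and BZIP24 in wt passed the filter through control arrays alone, so their place below 0 is in part a matter of how they entered the set.

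**Figure D1:**
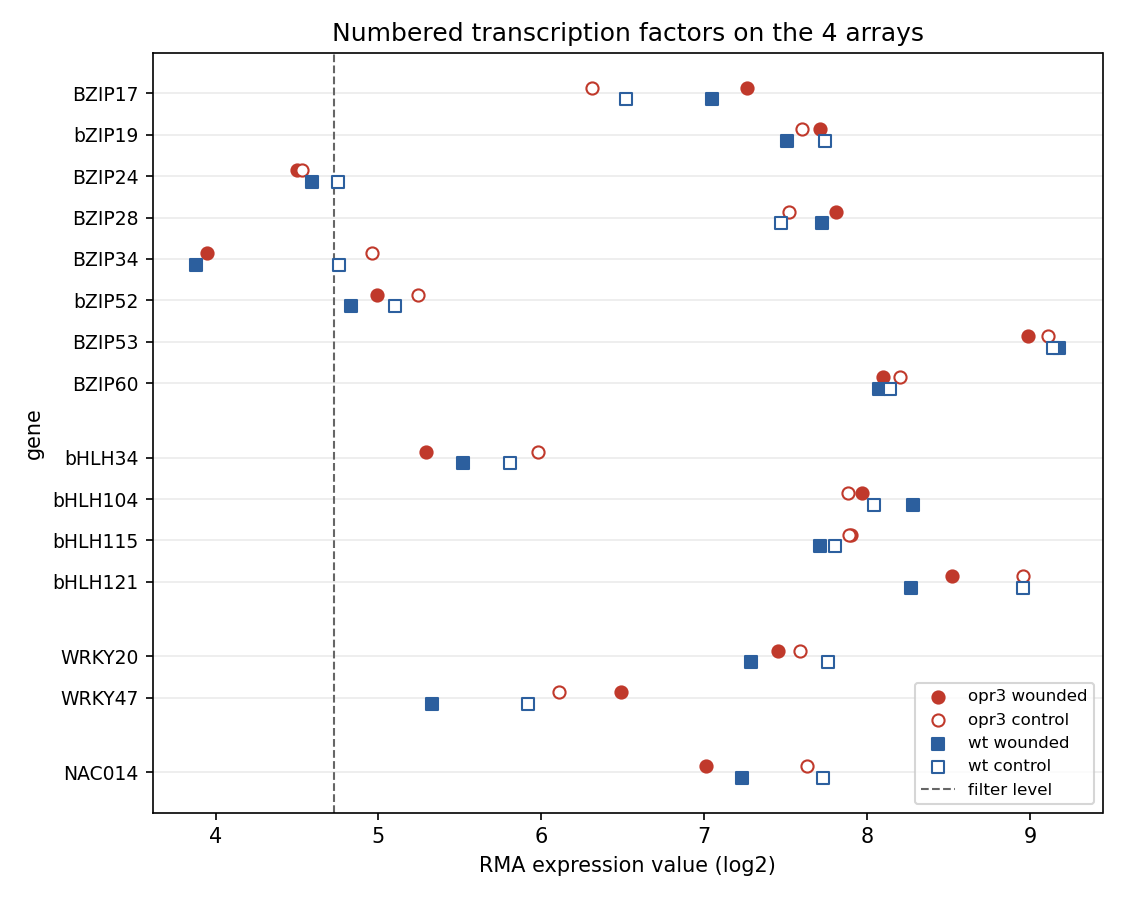
RMA log2 values of the 15 genes on the 4 arrays, ordered by family and number, with opr3 as red circles, wt as blue squares, wounded filled and control open. The dashed line is the filter level of 4.73, which BZIP24 and BZIP34 reached on 1 and 2 arrays, and levels are not to be compared between genes because each probe set has its own response.

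BZIP34 is the gene past 2-fold in opr3, and its wounded values lay near background. It encodes a group E bZIP factor with a known role in pollen, and BZIP61 is its closest relative in that group. BZIP34 (AT2G42380) was at 3.95 in wounded opr3 and 4.96 in control opr3, and at 3.88 in wounded wt and 4.76 in control wt. Both wounded arrays lay under both control arrays and under the filter level. BZIP34 passed the filter through its control arrays alone, so a lower wounded value is in part a matter of how it entered the set. The difference was about -1.01 in opr3 and about -0.88 in wt, and in opr3 it was -0.99 after quantile normalization and -0.95 after cyclic loess, just short of 2-fold. BZIP61, outside the set, was at 5.65 in wounded opr3 and 7.91 in control opr3, and at 5.86 in wounded wt and 7.84 in control wt.

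BZIP17, BZIP28 and BZIP60 form the bZIP arm of the unfolded protein response, which reacts to misfolded proteins in the endoplasmic reticulum (ER). BZIP17 and BZIP28 are held in the ER membrane and cut free under stress, and the transcript of BZIP60 is spliced outside the nucleus by IRE1. Of the 4 genes written in this list, 3 were named on the array, and none was 2-fold different in any comparison. By comparison and direction, 0.417% to 4.85% of all probe sets were. The median difference of the 3 genes was 0.29 after wounding in opr3 and 0.24 in wt, against -0.03 and -0.05 over all probe sets.

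BZIP17 (AT2G40950) was at 7.26 in wounded opr3 and 6.31 in control opr3, and at 7.05 in wounded wt and 6.52 in control wt. Both wounded arrays lay above both control arrays, and the difference of 0.95 in opr3 (1.93-fold) and 0.53 in wt (1.44-fold) was the highest of any member in each line. In opr3, 94.6% of all probe sets had a lower difference, and in wt 90.4%. BZIP28 (AT3G10800) was at 7.81 in wounded opr3 and 7.52 in control opr3, and at 7.72 in wounded wt and 7.47 in control wt. Its wounded arrays were likewise the higher ones, by 0.29 in opr3 and 0.24 in wt. BZIP60 (AT1G42990) was nearly level, at 8.10 in wounded opr3, 8.20 in control opr3, 8.07 in wounded wt and 8.14 in control wt. The deposited value of a probe set does not separate spliced from unspliced BZIP60 transcript.

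Of the other bZIP genes, bZIP19 and BZIP24 belong to group F. bZIP19 turns on zinc uptake genes when zinc is scarce, and BZIP24 is known from the response to salt. bZIP19 (AT4G35040) was at 7.71 in wounded opr3 and 7.60 in control opr3, and at 7.51 in wounded wt and 7.74 in control wt. Its difference was 0.11 in opr3 and -0.23 in wt. BZIP24 (AT3G51960) was the member closest to the filter level, at 4.50 in wounded opr3, 4.53 in control opr3, 4.59 in wounded wt and 4.75 in control wt. It therefore counts as a member only through the control wt array, and its values say little beyond a level near the filter.

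BZIP53 is a group S1 factor of seed maturation and of amino acid metabolism at low sugar. BZIP53 (AT3G62420) was at 8.99 in wounded opr3 and 9.11 in control opr3, and at 9.18 in wounded wt and 9.14 in control wt. All 4 values lay within 0.20 of each other. The other group C or S1 gene named on the array, bZIP44, stayed under the filter level.

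bZIP52 belongs to group I, whose members are relatives of VIP1, a factor that responds to osmotic and mechanical stress. bZIP52 (AT1G06850) was at 4.99 in wounded opr3 and 5.24 in control opr3, and at 4.83 in wounded wt and 5.10 in control wt. The wounded arrays were the lower ones, by 0.25 in opr3 and 0.27 in wt, which is close to the median size of a difference over all probe sets. Over the 8 bZIP genes the median difference was -0.07 in opr3 and -0.11 in wt, against -0.03 and -0.05 over all probe sets.

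The 4 bHLH members all act in iron supply. bHLH34, bHLH104 and bHLH115 are group IVc factors that, with their relative ILR3 (bHLH105), activate the group Ib genes of the iron deficiency response, to which BHLH101 belongs. bHLH121 partners the group IVc factors. Of the 12 names written in the iron bHLH list, these 4 matched a main gene name in the annotation, and none was 2-fold different in any comparison. By comparison and direction, 0.417% to 4.85% of all probe sets were. bHLH105, also in the list, is on the array under its main name ILR3 and is described below. Some genes stand in the list under several spellings. The median of the 4 differences after wounding was -0.22 in opr3 and -0.19 in wt, against -0.03 and -0.05 over all probe sets.

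bHLH121 (AT3G19860) was at 8.52 in wounded opr3 and 8.96 in control opr3, and at 8.27 in wounded wt and 8.96 in control wt. The controls of the lines were at the same level, and both wounded arrays lay below them, with a difference of -0.45 in opr3 and -0.69 in wt. bHLH34 (AT3G23210) was at 5.29 in wounded opr3 and 5.98 in control opr3, and at 5.52 in wounded wt and 5.81 in control wt. Its wounded arrays were also the lower ones, with a difference of -0.69 in opr3 (1.61-fold) and -0.29 in wt (1.22-fold). In opr3 5.24% of all probe sets had a lower difference than bHLH34, and in wt 5.71% had a lower one than bHLH121.

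bHLH104 (AT4G14410) was at 7.97 in wounded opr3 and 7.88 in control opr3, and at 8.28 in wounded wt and 8.04 in control wt. Its differences of 0.09 in opr3 and 0.24 in wt made it the only bHLH member above 0 in both lines. bHLH115 (AT1G51070) was at 7.90 in wounded opr3, 7.89 in control opr3, 7.71 in wounded wt and 7.80 in control wt. The spread over its 4 values was as small as that of BZIP53. BHLH101, outside the set, was at 3.86 in wounded opr3 and 5.77 in control opr3, and at 4.02 in wounded wt and 5.83 in control wt. Its wounded values lay under the filter level, so the size of its difference is approximate.

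**Figure D2:**
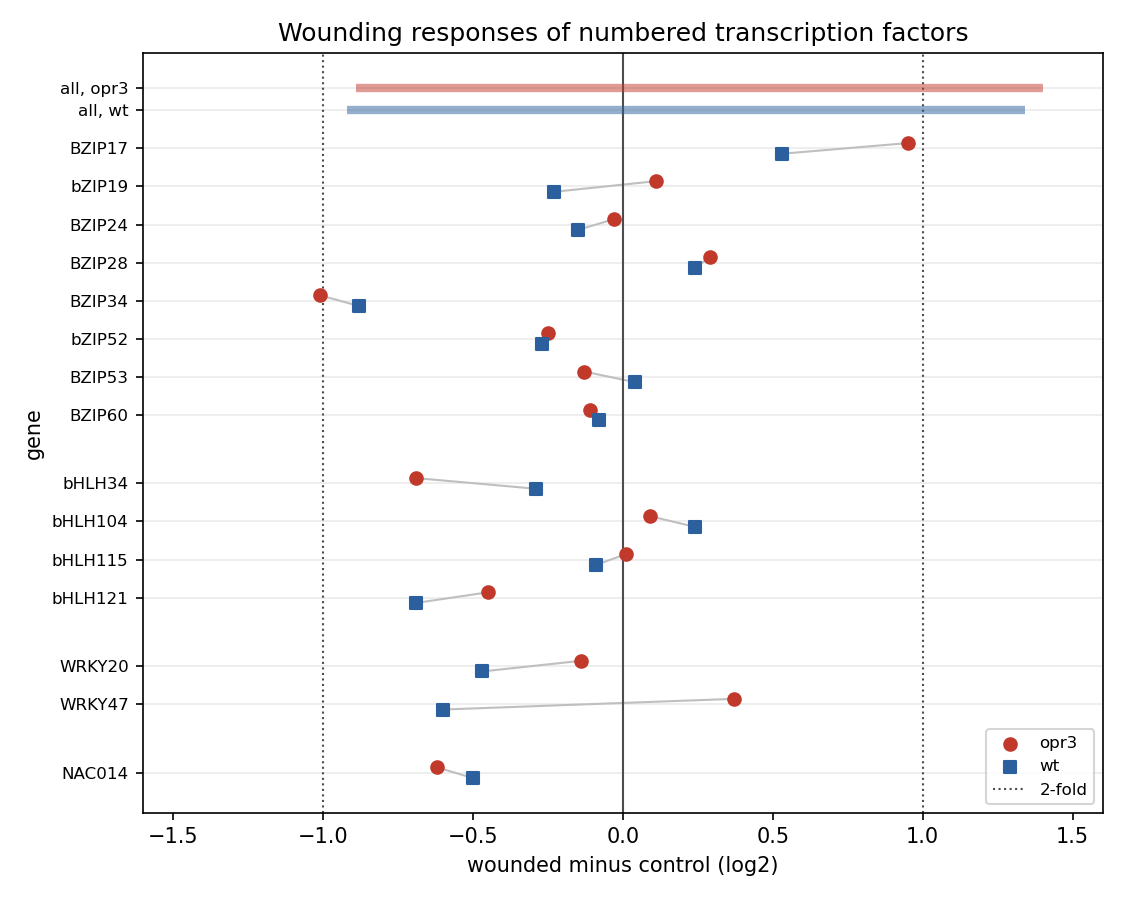
Log2 difference of wounded minus control for each gene in opr3 (red circles) and wt (blue squares), with dotted lines at 2-fold and, in the top rows, bars for the central 95% of all 14612 probe sets in each line. BZIP34 in opr3 is the only point past a 2-fold line, BZIP17 is the highest gene in both lines, and WRKY47 has the widest gap between the lines.

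WRKY47 had the largest difference between the lines after wounding of any member. It is a group IIb WRKY factor, a relative of WRKY6 and WRKY42, and has been linked to cell wall genes and aluminium tolerance in roots. WRKY47 (AT4G01720) was at 6.49 in wounded opr3 and 6.11 in control opr3, and at 5.33 in wounded wt and 5.92 in control wt. Its 2 opr3 arrays lay above its 2 wt arrays, with wounded opr3 the highest and wounded wt the lowest of the 4.

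The wounding difference of WRKY47 was 0.37 in opr3 and -0.60 in wt, so the response in opr3 minus that in wt was 0.97 (1.96-fold), just short of 2-fold and above that of 97.8% of all probe sets. In wounded leaves opr3 was 2.23-fold higher than wt (log2 1.16), above 99.1% of all probe sets, and in control leaves 1.14-fold higher (0.19). These comparisons share arrays and are not independent of each other. Both the larger ones use the wounded wt array, whose spiked-in 5′ minus 3′ value was the lowest, and the part of this in the WRKY47 difference was not tested.

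WRKY20 is a group I WRKY factor. WRKY20 (AT4G26640) was at 7.45 in wounded opr3 and 7.59 in control opr3, and at 7.29 in wounded wt and 7.76 in control wt. Both wounded arrays lay below both control arrays, by 0.14 in opr3 and 0.47 in wt.

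NAC014 was the only NAC gene. It encodes a NAC factor with a membrane anchor, a type that is kept out of the nucleus until it is released. NAC014 (AT1G33060) was at 7.01 in wounded opr3 and 7.63 in control opr3, and at 7.23 in wounded wt and 7.73 in control wt. Both wounded arrays lay below both control arrays. The difference was -0.62 in opr3 (1.53-fold) and -0.50 in wt (1.41-fold), and 6.77% of all probe sets in opr3 and 11.5% in wt had a lower one. Of the 12 names written as membrane-bound NAC genes, it was the only one that matched a main gene name.

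Across families, both wounded arrays lay below both control arrays for 7 of the 15 genes (34.4% of all probe sets), namely BZIP34, bZIP52, BZIP60, bHLH34, bHLH121, WRKY20 and NAC014. They lay above both controls for BZIP17 and BZIP28 alone, 2 of 15 (26.4% of all probe sets). At a limit of 1.5-fold, 3 genes were lower in wounded opr3 (7.69% of all probe sets), which were BZIP34, bHLH34 and NAC014. In wounded wt, 3 were lower (8.51% of all probe sets), which were BZIP34, bHLH121 and WRKY47. BZIP17 in opr3 was the only gene at least 1.5-fold higher (11.3% of all probe sets in opr3), and no member was in wt (8.32% of all probe sets). BZIP34 passed the filter through its control arrays alone, so its place among the lower genes is in part a matter of how it entered the set. For BZIP60 the order rests on a small gap, with wounded opr3 at 8.10 and control wt at 8.14.

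Without wounding the lines were close for every member. In control leaves no member was at least 2-fold higher in opr3 than in wt (0.417% of all probe sets) or at least 2-fold lower (0.575% of all probe sets), and none passed 1.5-fold either (1.66% of all probe sets higher and 2.27% lower). The differences ran from -0.22 for BZIP24 to 0.20 for BZIP34, with a median of 0.00, against -0.04 over all probe sets. Since BZIP24 is a member through the control wt array alone, its low value here is in part a matter of how it entered the set. The central 95% of all probe sets ran from -0.56 to 0.46, so all 15 genes lay inside it. Of the 5 genes left out by definition, WRKY22 and WRKY53 were at least 2-fold higher in control opr3 than in control wt. The narrow range of the members therefore holds only for the set without them.

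In wounded leaves WRKY47 was the only member at least 2-fold higher in opr3 than in wt, 1 of 15 (1.33% of all probe sets), and none was at least 2-fold lower (1.66% of all probe sets). The other 14 differences ran from -0.31 for bHLH104 to 0.25 for bHLH121. The median was 0.09, against 0.00 over all probe sets. Both opr3 arrays lay above both wt arrays for WRKY47 and bHLH115, 2 of 15 (10% of all probe sets), and below them for BZIP24, BZIP53 and bHLH104, 3 of 15 (11.7% of all probe sets). For bHLH115, BZIP24, BZIP53 and bHLH104 the separation was small, since none of their line differences was larger than 0.31. BZIP24 is a member through the control wt array alone, so its place below wt is in part a matter of how it entered the set.

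**Figure D3:**
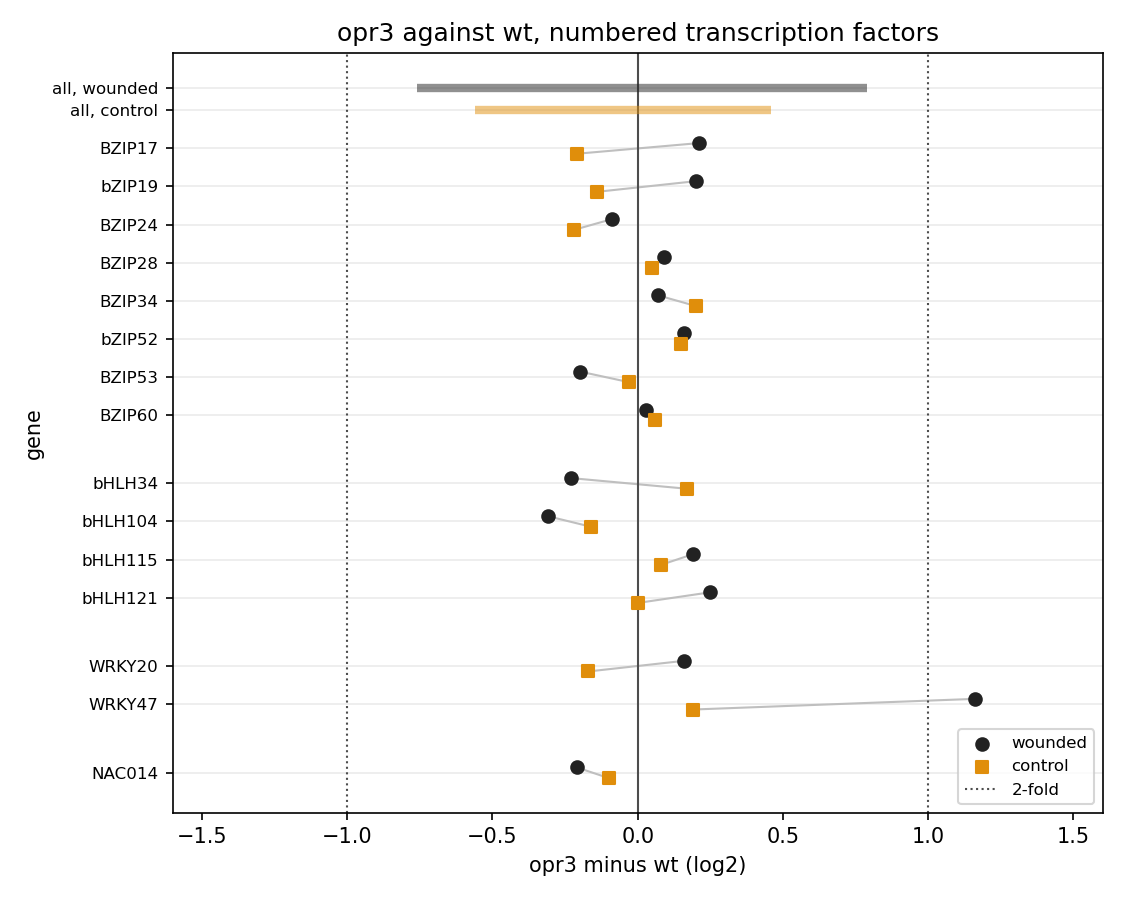
Log2 difference of opr3 minus wt for each gene in wounded leaves (black circles) and control leaves (orange squares), with dotted lines at 2-fold and, in the top rows, bars for the central 95% of all 14612 probe sets. All control points lie between -0.22 and 0.20, and WRKY47 in wounded leaves at 1.16 is the only point past 2-fold.

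For the response in opr3 minus the response in wt, no member was at least 2-fold larger (2.07% of all probe sets) or at least 2-fold smaller (1.32% of all probe sets). After WRKY47 at 0.97, the largest values were 0.42 for BZIP17, 0.34 for bZIP19 and 0.33 for WRKY20, and the lowest was -0.40 for bHLH34. For BZIP17 the value was made up of an opr3 minus wt difference of 0.21 in wounded leaves and one of -0.21 in controls. For bHLH34 the signs were the opposite, with -0.23 in wounded leaves and 0.17 in controls. The median over the members was 0.05, against 0.03 over all probe sets, and changed sign when each array was centred on its median (-0.03).

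The 6 genes of the rule that stayed under the filter level on all arrays were bZIP42, bZIP43, bZIP44, bZIP48, bZIP58 and WRKY42. Just inside the level stood BZIP24 with a highest value of 4.75 and BZIP34 with 4.96, and just outside it bZIP44 with 4.59 and bZIP42 with 4.31. Among these 6 the largest wounding difference was -0.34, for bZIP42 in opr3, at values near background.

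Relatives with another main name were compared to see whether the naming hid larger differences. Of 12 genes with a numbered synonym in the gene table, 8 passed the filter, and none was 2-fold different in any of the 5 comparisons. By comparison and direction, 0.417% to 4.85% of all probe sets were, so little can be read from a count of 0 among 8 genes. ILR3 (bHLH105), the remaining group IVc factor, was at 9.48 in wounded opr3 and 9.52 in control opr3, and at 9.36 in wounded wt and 9.58 in control wt. ZAP1 (WRKY1) was at 7.56 in wounded opr3 and 7.87 in control opr3, and at 7.48 in wounded wt and 8.0 in control wt, so its wounded arrays were the lower ones. AT4G38900 (bZIP29), a group I bZIP gene like bZIP52, was at 6.96 in wounded opr3 and 7.46 in control opr3, and at 6.96 in wounded wt and 7.42 in control wt. AT2G40620 (bZIP18), of the same group, was at 5.39 in wounded opr3 and 5.58 in control opr3, and at 5.05 in wounded wt and 5.65 in control wt. PHV (HB9), a homeobox factor of leaf polarity, was at 7.01 in wounded opr3 and 6.44 in control opr3, and at 6.73 in wounded wt and 6.66 in control wt, with the highest wounding difference of the 8 in both lines. AT1G06070 (bZIP69), AT2G21230 (bZIP30) and AT1G22490 (bHLH94) had wounding differences of 0.01, -0.02 and -0.03 in opr3 and of -0.11, -0.05 and -0.22 in wt. Over the 8 genes the wounding difference was below 0 for 6 in opr3 (53.2% of all probe sets) and 7 in wt (56.2% of all probe sets). Their medians were -0.03 in opr3 and -0.22 in wt, against -0.03 and -0.05 over all probe sets.

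Of 131 names of relatives without a number that were written by family, 11 had a named probe set. PHV and EEL among these also stand among the genes with a numbered synonym, so the sets overlap. Of the 11, 7 passed the filter, PHV among them. Over the 7 the median wounding difference was 0.32 in opr3 and 0.07 in wt, against -0.03 and -0.05 over all probe sets. BIM1, a bHLH gene of the 7, had differences of 0.52 in opr3 and 0.22 in wt. HYH, a bZIP factor of light signalling, was the only one past 2-fold in any comparison, at 6.09 in wounded opr3 and 4.75 in control opr3, and at 5.65 in wounded wt and 5.17 in control wt. Its difference was 1.34 in opr3 and 0.48 in wt. MYC3 and MYC4, bHLH factors that carry the jasmonate signal, had wounding differences of 0.32 and -0.03 in opr3 and of 0.07 and -0.32 in wt. ORA47, an ERF-family regulator of jasmonate synthesis, was at 5.51 in wounded opr3 and 5.71 in control opr3, and at 6.04 in wounded wt and 6.49 in control wt. Its opr3 arrays were both below its wt arrays, an order held by 11.7% of all probe sets. MYC3 and MYC4 had the same order by small gaps. For MYC3, wounded opr3 was at 7.05 and control wt at 7.11, and for MYC4, control opr3 was at 6.09 and wounded wt at 6.19. HAT2, a homeobox gene among the relatives, had the opposite order (10% of all probe sets).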

How the data were processed

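The deposited log2 values, 1 per probe set and array, come from the authors' use of RMA and Partek, both listed without version in the submitters' processing notes. RMA corrects the background, brings the arrays to one distribution and summarises the probes of a set. Genome build and upstream annotation are not given in the sources used here, so no coordinates are printed. Of 22810 probe sets, 64 array controls were set aside. Names came from the platform annotation, which paired 13513 probe sets with 1 gene and 503 with several, and from the gene table of assembly TAIR10.1, which matched all 15 members. Each member had 1 probe set.

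The filter level is the 40th percentile of all values. Differences between single arrays were computed with pandas 2.3.3, without a test, and the steps were tested on simulated data. Cyclic loess used limma 3.58.1. The number of arrays limits the precision. The members and gene lists were chosen with earlier results of these data known. The genes named are all 15 members, the genes nearest the filter level, and listed relatives, of which those described were picked after their values were seen. No sequence is printed. Alternatives were 3 scalings, 3 filters, averaging of probe sets, updated symbols and limits of 1.5-fold and 3-fold. Those with other members were chosen after seeing the data.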

Additional observations from a re-analysis of the deposited data

Results flagged for a closer look

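For 4 genes the wounding difference had opposite signs in opr3 and wt, and in none of them was the difference between the lines tested, since each line had 1 wounded and 1 control array. WRKY47 was at 0.37 in opr3 and -0.60 in wt, a difference of 0.97. bZIP19 was at 0.11 in opr3 and -0.23 in wt, a difference of 0.34. BZIP53 was at -0.13 in opr3 and 0.04 in wt, a difference of -0.17. bHLH115 was at 0.01 in opr3 and -0.09 in wt, a difference of 0.11, and its sign in opr3 turned when arrays were centred on their medians or quantile normalized. Opposite signs occurred in 26.7% of the members and in 27.1% of all probe sets.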

How the results depend on the processing

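No paired analysis was possible because each group has 1 array. Averaging over probe sets and updating symbols could change nothing here, since each member had 1 probe set and the symbols were the same. Under the other alternatives 85 of 100 counts over members stayed within 1.5 times the reported one, and 105 of 120 medians within 0.1 (log2). Most reported counts were 0. A 3-fold limit, a filter at the 60th percentile and a filter on the mean could only leave these at 0. Part of the 85 was therefore fixed in advance and says nothing about robustness. Single genes moved by at most 0.12 under the 3 scalings. The 1 gene at least 2-fold lower in wounded opr3, BZIP34, became 0 with quantile normalization, cyclic loess, a filter at the 60th percentile, a filter on the mean of the arrays or a 3-fold limit. With a 3-fold limit the 1 gene higher in wounded opr3 than in wounded wt, WRKY47, also became 0. With a 1.5-fold limit 3 genes were lower in wounded opr3 (7.69% of all probe sets), 3 lower in wounded wt (8.51%) and 1 higher in wounded opr3 (11.3%). At that limit 1 was higher in the difference of responses, for which the share of all probe sets was not computed. With the 5 genes left out by definition, 4 were lower in wounded opr3 (1.68% of all probe sets), 2 lower in wounded wt (1.79%) and 2 higher in control opr3 than in control wt (0.417%). In that set 1 was also lower in wounded opr3 than in wounded wt (1.66%) and 1 lower in the difference of responses (1.32%). BHLH101, counted there as lower after wounding in both lines, reached the filter level through its control arrays alone. Without the filter, the median of all genes was 0.01 for the opr3 response and -0.09 for the wt response, and the bZIP median between controls was -0.09. With the filter at the 60th percentile, the median of all genes was 0.01 for the opr3 response and -0.09 for the wt response, that of bZIP genes 0.11 and 0.04, and that of bHLH genes 0.01 for the opr3 response, 0.19 between lines after wounding and 0.11 for the difference of responses. With the 5 genes, the bHLH median was -0.45 for the opr3 response and -0.16 between wounded lines. With numbered synonyms it was -0.03 for the opr3 response, 0.16 between wounded lines and 0.15 for the difference of responses. These sets hold other genes, which moves a median of few values. The sizes of the BZIP24 and BZIP34 differences, near the filter level, are approximate, and raw intensities were not analysed here.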
